A study of Mus musculus with 2 samples.

Results

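Myocardial B cells that held a transcript of Fcer2a (CD23) but no transcript of Cr2 (CD21) are described here, and are called Fcer2a+Cr2- cells. They were chosen in both libraries by fixed limits on the counts of each droplet. A droplet needed at least 2000 unique molecular identifiers (UMIs, barcodes that let copies of the same mRNA be counted once) in genes, at most 10% of them in mitochondrial genes, at least 1 UMI of Cd79a, at least 1 UMI of Fcer2a and 0 UMIs of Cr2. It could hold a UMI of at most 2 of 6 genes, Bhlhe41, Zbtb32, Ctla4, Cd9, S100a6 and Nid1, which mark B1 cells and other cells set apart from B2 cells. The rule found 1832 Fcer2a+Cr2- cells among 4931 B cells that met every other limit, 666 of 1900 in the neonatal and 1166 of 3031 in the adult library. The cells came from the hearts of C57BL/6J wild-type mice (C57BL6/J in the labels), and the labels name no treatment at either age. Neonatal mice were 2 weeks old (15 days in the sample title) and of both sexes, and adult mice were 8 weeks old and male. For each age, 6 mice were pooled, and their B cells, sorted within 1 day for both ages after the same digestion, were sequenced as 1 library. With 1 library per age there is no replicate check and no test across samples, and age cannot be told apart from library, sex of the pooled mice and depth. All intervals given are exact 95% intervals and cover counting error only, not the spread between mice.

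CD23 is the low-affinity receptor for IgE and is induced on B cells as they mature into the follicular pool, where IL-4 raises it further. CD21 is the receptor for complement fragments of C3, forms part of the B cell coreceptor and is shared by follicular and marginal zone cells. Newly formed B cells leaving the bone marrow carry little of both, and gain them together with surface IgD. In the mouse genome (mm10, GENCODE M21) Fcer2a lies on the minus strand of chromosome 8 at 3681737 to 3694175, and Cr2 on the minus strand of chromosome 1 at 195136811 to 195176716.

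The libraries held antibody tags for CD11b, CD21 and CD23, but the antibody rows summed to 3 UMIs (neonatal) and 2 UMIs (adult). Surface CD21 and CD23 were therefore not read, and the cells were followed by transcript alone. The neonatal library summed to 26866958 gene UMIs, the adult library to 49500780. Of the droplets with at least 2000 UMIs, 2507 neonatal and 4120 adult, 416 and 505 were left out for mitochondrial UMIs. A further 177 neonatal and 580 adult Cd79a-positive cells were left out for holding 3 or more of the 6 genes. Fcer2a+Cr2- cells had a median depth of 6039.5 UMIs among neonatal and 4477 UMIs among adult cells. The adult cells with both transcripts were deeper, with a median of 7838 UMIs.

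The B cells fell into 4 classes by the 2 transcripts. Fcer2a+Cr2- cells were 35.1% (32.9 to 37.2) of the neonatal and 38.5% (36.7 to 40.2) of the adult B cells. Cells with both transcripts were 10.7% (204 cells) of the neonatal and 37.4% (1135 cells) of the adult B cells. Cells with neither transcript were 48.2% (916 cells) and 16.3% (493 cells), and cells with Cr2 alone 6% (114 cells) and 7.82% (237 cells). These shares compare libraries of different depth. With each cell thinned to 2000 UMIs, cells read as Fcer2a+Cr2- were 24% (22.1 to 26.0) of the neonatal and 38.1% (36.4 to 39.9) of the adult B cells, and the intervals did not overlap.

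Whether a Fcer2a-positive cell was read as Cr2-negative depended on the number of UMIs of the cell. In the adult library, the share of Fcer2a-positive cells without a Cr2 UMI was 76.5% from 2000 UMIs up to 4000, 65.3% from 4000 up to 6000, 39.2% from 6000 up to 8000, 31.0% from 8000 up to 12000 and 13.1% at 12000 or more. In the neonatal library the same ranges held 80%, 83.0%, 75.4%, 71.2% and 58.8%. The deepest neonatal cells were therefore Cr2-negative more often than the deepest adult cells, and their intervals did not overlap. Each cell was then thinned to 2000 UMIs, and both transcripts were read again. The Cr2-negative share of Fcer2a-positive cells was then 92.9% (90.2 to 95, 456 of 491) in the neonatal and 79.5% (77.3 to 81.5, 1156 of 1455) in the adult library, against 76.6% and 50.7% as sequenced. At this equal depth the share was 96.9% (31 of 32) in the deepest neonatal range and 73.9% (66.7 to 80.2) in the deepest adult range, and 86.4% and 85.7% in the shallowest. The sampling depth and the Cr2 level both moved with the range in the adult library. Summed over its Fcer2a-positive cells, Cr2 was at 92.0 CPM (counts per 1e6 gene UMIs) in the shallowest range, 111 CPM in the next, and 170, 173 and 154 CPM in the 3 deeper ranges. In the neonatal library Cr2 was at 67.2, 42.3, 42.5, 37.6 and 36.2 CPM, below the adult value in each range.

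**Figure D1:**
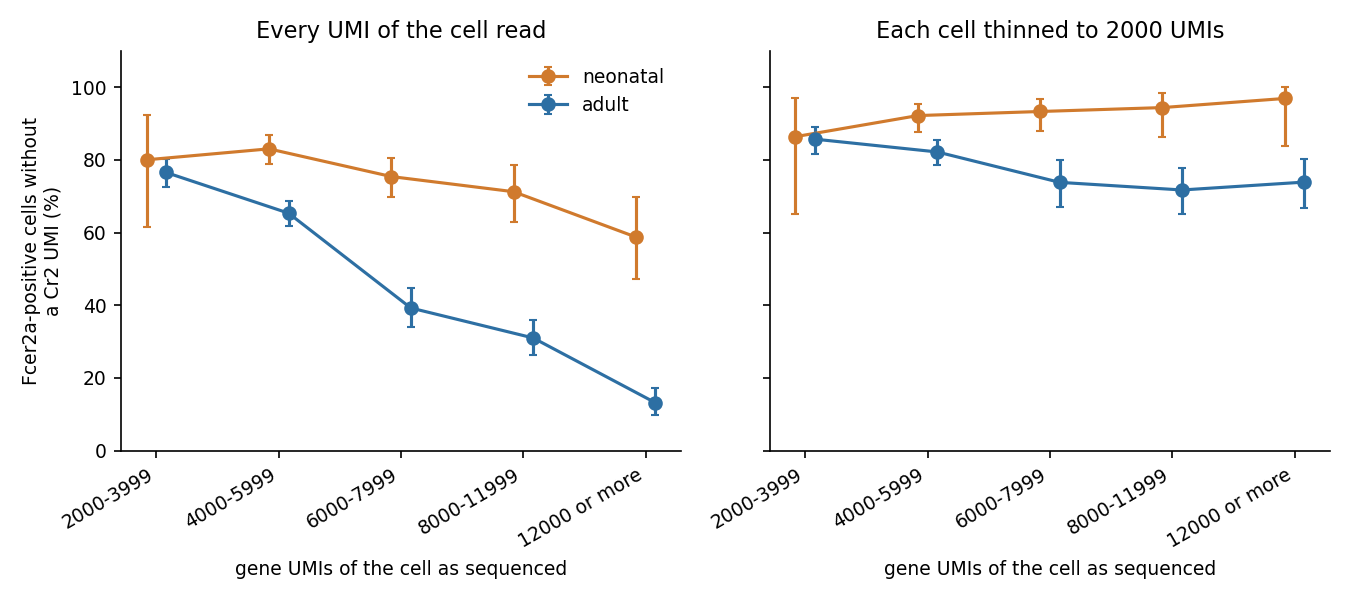
Share of Fcer2a-positive cells without a Cr2 UMI (%, y axis) by the number of gene UMIs of the cell (x axis), in the neonatal and adult library. Points are shares and bars exact binomial 95% intervals; the left panel reads every UMI and the right panel 2000 UMIs of each cell. On the left the adult share runs from 76.5% to 13.1%, and on the right from 85.7% to 73.9%, while the neonatal share lies above it in each range, with overlapping intervals in the shallowest.

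The class is thus a detection class. On thinning to 2000 UMIs, 371 of the 666 neonatal and 778 of the 1166 adult Fcer2a+Cr2- cells kept a Fcer2a UMI, and the others would have been read as holding neither transcript. Conversely, 85 of the 204 neonatal and 378 of the 1135 adult cells with both transcripts kept Fcer2a and lost Cr2. These made up 18.6% of the neonatal and 32.7% of the adult cells read as Fcer2a+Cr2- at this depth. How many Fcer2a+Cr2- cells lack CD21 protein cannot be read from these counts.

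The Fcer2a signal itself was low in most cells. Of the neonatal Fcer2a+Cr2- cells, 223 held 1 Fcer2a UMI, 134 held 2, 108 held 3 and 201 held 4 or more, with a maximum of 19. Of the adult ones, 433, 300, 181 and 252 held these numbers, with a maximum of 20. Among adult Fcer2a-positive cells the Cr2-negative share was 64.2% at 1 Fcer2a UMI, 56.4% at 2, 51.4% at 3 and 33.9% at 4 or more, and the median UMIs of these Fcer2a+Cr2- cells rose from 4111 to 5186.5. In the neonatal library it was 77.2%, 81.2%, 82.4% and 70.5%. Free RNA can put a UMI into a cell that lacks the transcript. Near-empty droplets held on average 55.9 neonatal or 92.0 adult UMIs, and at that load free RNA would bring a Fcer2a UMI to 1.42% and 3.39% of droplets, and a Cr2 UMI to 0.160% and 0.999%. In the cells with 3 or more of the 6 genes, among which B1 cells should lack CD23, Fcer2a was read at 2000 UMIs in 6.78% (12 of 177) of the neonatal and 17.8% (103 of 580) of the adult cells. Their median depth was 15881 and 16550 UMIs before thinning. The B cells that met the rule's other limits held it in 26.2% and 46.2% in the same draw, with median depths of 5821.5 and 5150 UMIs. The cells with 3 or more of the 6 genes are not a clean background, since 56.9% of the adult ones held a Cr2 UMI as sequenced. The barcodes of 45 neonatal and 39 adult ones also held at least 500 UMIs in the other library, against 7 and 0 of the Fcer2a+Cr2- cells. Among the few droplets with 4 or more macrophage markers Fcer2a was read at 2000 UMIs in 0 of 10 neonatal and 3 of 4 adult droplets, and among those with 3 or more T cell markers in 0 of 5 and 2 of 12. How much of the Fcer2a signal is background was not tested.

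The limits of the rule cut through continuous values. On the neonatal side, 81 Fcer2a+Cr2- cells had 9 to 10% mitochondrial UMIs, and 34 otherwise like them had 10 to 11%, with Ighd at 601 and 641 CPM. The adult numbers were 86 and 45 cells, at 970 and 857 CPM. A UMI of exactly 2 of the 6 genes was held by 35 neonatal and 52 adult Fcer2a+Cr2- cells, and exactly 3 by 19 and 30 cells outside the rule, with Ighd at 455 against 423 CPM and 672 against 494 CPM. Few cells lay at the limit on UMIs, with 4 neonatal and 10 adult cells in the 500 UMIs above it and 1 and 6 cells in the 500 UMIs below it. Exactly 1 Cr2 UMI kept 159 neonatal and 520 adult Fcer2a-positive cells out, with Ighd at 686 and 895 CPM. Most Fcer2a+Cr2- cells held a UMI of 0 of the 6 genes, namely 462 neonatal (69.4%) and 898 adult (77.0%).

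The label of the cells as Ighd- and Ccr7-bearing mature B cells was checked first. Ighd, which encodes the constant region of IgD, was detected at 2000 UMIs in 67.6% (63.9 to 71.1) of the neonatal Fcer2a+Cr2- cells, 69.1% of the cells with both transcripts, 50% of those with Cr2 alone and 48.8% (45.5 to 52.1) of those with neither. In the adult library Ighd was detected in 81.8% (79.5 to 84.0), 80.0%, 69.2% and 71.6% (67.4 to 75.5). Ighd thus set the Fcer2a+Cr2- cells apart from cells with neither transcript in both libraries. Ccr7, the receptor that draws lymphocytes to T cell zones, did so less. It was detected in 82.0% of neonatal Fcer2a+Cr2- cells and in 82.3% of cells with neither transcript, and in 62.6% (59.8 to 65.4) and 54.8% (50.3 to 59.2) of the adult ones. The adult difference depended on depth. Adult Ccr7 was at 699 against 745 CPM from 2000 UMIs up to 4000 and 650 against 726 CPM from 4000 up to 6000. In the deeper ranges it was at 557 against 538, 579 against 265 and 492 against 124 CPM. These ranges held 43, 42 and 19 adult cells with neither transcript. Fcer2a, Ighd and Ccr7 were named together when these cells were proposed, so Ighd and Ccr7 are given as a description.

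To compare levels at equal depth, Fcer2a+Cr2- cells were paired 1 to 1 with cells of the other class in their library. Partners had nearly the same UMI total (at most 5% apart). Cells without a partner were left out, so the paired cells are a part of each class. UMIs were then summed over each set. A log2 ratio is that of the summed CPM, and a gene was called when the ratio passed 1.5-fold in the same direction in both libraries. Against cells with neither transcript, 631 neonatal and 490 adult pairs were formed. The median log2 ratio of all genes compared was -0.06 and 0.03.

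Of the follicular genes 0 of 9 and of the transitional genes of newly formed B cells 0 of 6 passed 1.5-fold in both libraries against cells with neither transcript. Over all genes 0.133% were called higher and 0.561% lower, so a list of this size would rarely hold a call. Over all pairs, Ighd and Satb1 had ratios above 0 in each library, and Vpreb3 and Spib ratios below 0. These intervals left out 0. The ratios of these 4 genes lay nearer to 0 in the adult library. Ighd summed to 2887 against 1719 UMIs in the neonatal pairs (701 against 412 CPM, log2 ratio 0.77, 0.68 to 0.85) and to 2390 against 1706 UMIs in the adult pairs (945 against 676 CPM, 0.48, 0.39 to 0.57). Satb1, a chromatin organizer of lymphocytes, was at 477 against 304 CPM (0.65) and 477 against 369 CPM (0.37). Gpr183, the oxysterol receptor that positions B cells in follicles, had ratios of 0.92 and 0.40. Of the genes in the follicular list, Klf2 and S1pr1, which act in egress from tissue, lay near or below 0, with ratios of -0.06 and 0.08 for Klf2 and -0.14 and -0.18 for S1pr1. The follicular list thus did not move as a block: 6 of 9 neonatal and 8 of 9 adult ratios were above 0, with medians of 0.23 and 0.30. Part of the adult difference moved with the 6 genes of the rule. Between cells that held none of the 6, the adult ratios were 0.16 for Ighd and 0.05 for Satb1, with an adult list median of 0.05, while the neonatal ratios were 0.76 and 0.62 and the list median 0.21.

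The study's own list of genes high in CD21+CD23+ heart B cells was chosen on these libraries and is therefore not independent evidence of a direction. Of its 20 genes, 18 could be compared, since Fcer2a and Cr2 were used by the rule. All 18 had ratios above 0 in each library, with medians of 0.65 and 0.34. Stat4, a transducer of cytokine signals, had a ratio of 1.07 (0.85 to 1.30) in the neonatal and 0.41 (0.15 to 0.68) in the adult library. Neurl3, a ubiquitin ligase, had 0.92 and 0.46. Between cells that held none of the 6 genes, the list medians were 0.65 and 0.13. With 0 of the 18 called in both libraries, the differences stayed under the threshold in at least 1 library.

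Across all 6777 genes compared, 9 genes (0.133%) were at least 1.5-fold higher in Fcer2a+Cr2- cells in both libraries, and 38 genes (0.561%) at least 1.5-fold lower. Of the called genes, 3 of the 9 higher and 7 of the 38 lower held at least 50 UMIs in every set, and the others met that minimum only in sum. The higher genes were Ccr6, Gpr174, Map3k3, Arrb2, Pot1a, Rapgef4, Tagap, St6galnac3 and Ddx25. Ccr6 and Gpr174 were among the 3 with at least 50 UMIs in every set. The 6 that met the minimum only in sum are a description. Ccr6, the receptor for CCL20 that is gained by mature B cells, summed to 124 against 57 UMIs in the neonatal (log2 ratio 1.14, 0.68 to 1.62) and 169 against 101 UMIs in the adult pairs (0.74, 0.38 to 1.11). Gpr174, a receptor for lysophosphatidylserine, summed to 223 against 100 and 214 against 138 UMIs (1.18 and 0.63). Ccr6 was 1 of 12 homing genes compared and the one called, and its adult ratio was under 1.5-fold without cells of at least 10 Jchain UMIs, a marker of antibody-secreting cells (0.56), and between cells with none of the 6 genes (0.50). With each cell thinned to 2000 UMIs and not paired, the Ccr6 ratios were 1.04 and 0.15, and 7 of the 47 called genes were called again.

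MHC class II genes, which present antigen to helper T cells, had ratios above 0 in both libraries, and 0 of 10 was called. All 10 lay above 0 in each library, with medians of 0.42 and 0.15. H2-Aa summed to 12024 against 8047 UMIs (0.60, 0.56 to 0.64) in the neonatal and 10254 against 9398 UMIs (0.12, 0.08 to 0.16) in the adult pairs. Cd74, the invariant chain, had ratios of 0.17 and 0.10. Of the 7 genes of the IL-4 receptor and CD23 list compared, 0 was called, with medians of 0.11 and 0.17. Il4ra had ratios of 0.11 and 0.42, Stat6, the factor it activates, 0.07 and 0.07, and Adam10, the sheddase of CD23, 0.03 and 0.36. The IL-4 feedback inhibitor Socs1 was at 60 against 58 UMIs and at 46 against 83 UMIs (0.07 and -0.85). Cd81, a partner of CD21 in the coreceptor, had ratios of 0.05 and -0.01.

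Of the transitional list 6 of 12 genes could be compared, and 4 of these held at least 50 UMIs in every set. The medians over all 6 were -0.71 and -0.35, and 0 of 6 was called. Vpreb3, which assists assembly of the B cell receptor and is high in newly formed cells, was at 320 against 559 CPM (-0.80, -0.90 to -0.70) in the neonatal and 210 against 250 CPM (-0.25, -0.42 to -0.09) in the adult pairs. Over all cells by range, however, the adult direction changed with depth. Adult Vpreb3 was at 255 against 373 CPM from 2000 UMIs up to 4000 and 261 against 327 CPM from 4000 up to 6000. In the deeper ranges it was at 215 against 187, 224 against 51.1 and 203 against 59.0 CPM. These ranges held 43, 42 and 19 adult cells with neither transcript. In the deepest neonatal range Vpreb3 was at 359 against 292 CPM, with overlapping intervals. Spib, a transcription factor of the Ets family, had ratios of -0.99 and -0.37, and Sox4, a factor of early B cells, -1.10 and -0.56 (-1.21 to 0.08). Ly6d, a marker of B lineage commitment, had -0.60 and -0.12. Cd93, the marker by which transitional cells are commonly sorted, was at 113 UMIs in each neonatal set (0.02) and at 22 against 42 UMIs in the adult sets (-0.94). It met the minimum in the adult library only in sum, so its adult value is a description. Cd79b, a signalling chain of the B cell receptor, had ratios of -0.43 and -0.19. With a minimum of 4000 UMIs the transitional medians were -0.75 and -0.03.

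**Figure D2:**
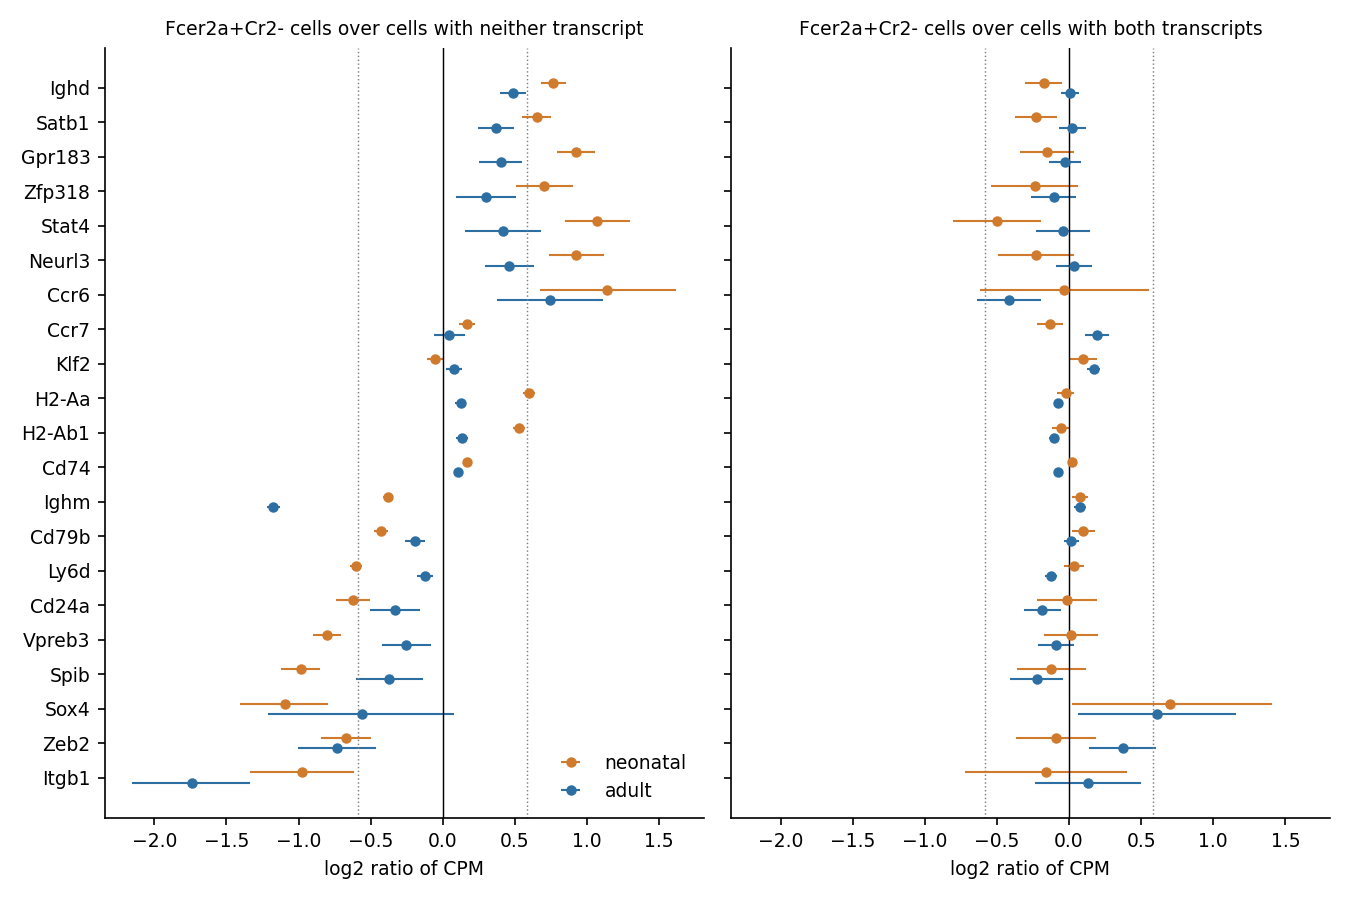
Log2 ratio of CPM (x axis) of 21 genes (rows) in Fcer2a+Cr2- cells over depth-paired cells with neither transcript (left) and with both transcripts (right). Points are the neonatal and adult libraries, bars exact 95% counting intervals, and dotted lines 1.5-fold. On the left Ighd, Satb1 and Stat4 lie above 0 and Vpreb3, Spib and Itgb1 below it in both libraries, while on the right most points lie between the dotted lines.

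Genes of B1 cells were among those called lower. Of 7 list genes compared, 4 held at least 50 UMIs in every set, and 1 of these, Itgb1, was called lower. Of all genes with that minimum in every set, 7 of 4610 were called lower, beside 0.561% of all genes compared. The 3 other list genes called lower, S100a4, Anxa2 and Plscr1, met the minimum only with the cells with neither transcript, and their values are a description. Over all cells without pairing, the neonatal ratios of Anxa2 (0.075) and S100a4 (0.31) turned round. Itgb1, an integrin chain, summed to 99 against 197 UMIs in the neonatal (-0.97) and 67 against 223 UMIs in the adult pairs (-1.74). S100a4, a calcium-binding protein, summed to 8 against 69 UMIs and to 11 against 87 UMIs, but 52.2% and 44.8% of the UMIs in the cells with neither transcript came from 1 cell in each library. Between cells that held none of the 6 genes, the Itgb1 ratios were -0.49 and -0.77. Zeb2, a transcription factor, was also called lower (-0.67 and -0.73, and -0.73 and -0.25 between cells with none of the 6 genes). Sox5, a factor raised in some atypical B cells, had ratios of -1.88 and -2.62, and Ahr, the aryl hydrocarbon receptor, -1.28 and -1.35. Both were named after their values were seen, and their ratios are a description. Plac8 had ratios of -0.56 and -0.85.

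In the other lists 0 to 1 gene was called against cells with neither transcript, beside 0.133% higher and 0.561% lower over all genes. Of the 6 marginal zone genes compared, 0 was called, with medians of -0.33 and -0.43. The 13 B cell receptor genes had medians of -0.22 and 0.02, the 8 survival genes 0.02 and 0.02 and the 17 transcription factors -0.06 and 0.11, each with 0 called. Of the 15 activation genes 0 was called (0.17 and 0.07), and of the 3 interferon genes with at least 50 UMIs in every set 0 was called. Rsad2, an antiviral enzyme, had fewer in some sets (12 against 40 and 28 against 58 UMIs) and is a description. The 6 cell cycle genes had medians of opposite sign, -0.50 and 0.48, with 0 called.

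Antibody-secreting cells lay among the cells with neither transcript, and leaving them out moved the adult ratio of Ighm but not the neonatal one. Cells with at least 10 Jchain UMIs, the joining chain of secreted IgM, numbered 2 neonatal and 5 adult cells with neither transcript and 0 Fcer2a+Cr2- cells. Ighm, the constant region of IgM, summed to 13769 against 18195 UMIs (-0.38) in the neonatal and 5953 against 13428 UMIs (-1.18) in the adult pairs, where 40.7% of the UMIs in cells with neither transcript came from 1 cell. With the Jchain-rich cells left out the adult ratio of Ighm was -0.32 and the neonatal one -0.38. That of Igkc, the kappa constant region, went from -0.82 to 0.01 in the adult library.

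The shares of cells with a UMI showed the same order without pairing. At 2000 UMIs, Gpr183 was read in 38.0% (34.3 to 41.8) of neonatal Fcer2a+Cr2- cells and in 20.3% (17.7 to 23.1) of cells with neither transcript, and in 43.9% (41.0 to 46.8) and 33.5% (29.3 to 37.8) of the adult ones. Vpreb3 was read in 39.9% (36.2 to 43.8) against 57.6% (54.4 to 60.9) in the neonatal library, and in 34.3% against 36.9% in the adult library, where the intervals overlapped. A cell was also scored for how many of the transitional genes it held. At least 3 were read at 2000 UMIs in 30.9% (27.4 to 34.6) of neonatal Fcer2a+Cr2- cells, 32.4% of cells with both transcripts, 44.7% of those with Cr2 alone and 53.1% (49.8 to 56.3) of those with neither. In the adult library the shares were 18.4% (16.2 to 20.7), 21.9%, 21.5% and 25.6% (21.8 to 29.6).

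**Figure D3:**
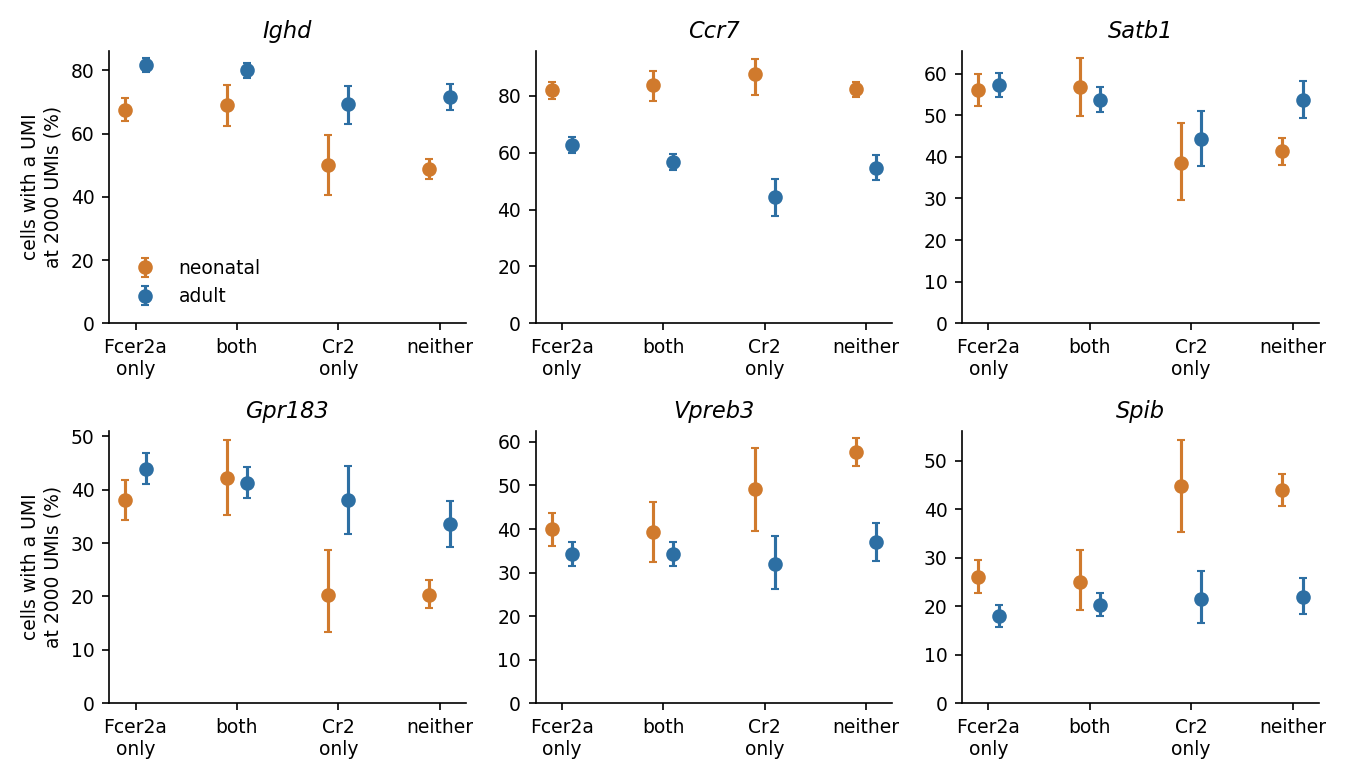
Share of cells with a UMI at 2000 UMIs (%, y axis) for 6 genes in the 4 classes (x axis), in the neonatal and adult library, with exact binomial 95% intervals. In the neonatal library Ighd, Satb1 and Gpr183 are read in similar shares of Fcer2a+Cr2- cells and cells with both transcripts, and in fewer cells with neither; for Vpreb3 and Spib the order is turned round.

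Against cells with both transcripts, few genes passed 1.5-fold in both libraries at matched depth. In the neonatal pairs alone 155 genes were higher and 176 lower by that limit, and in the adult pairs alone 53 and 20. The comparison used 199 neonatal and 673 adult pairs and 5853 genes, and the median log2 ratio of all genes was -0.02 and 0.02. The Fcer2a+Cr2- cells held fewer Fcer2a UMIs than their partners, on average 2.93 against 3.42 in the neonatal and 2.66 against 3.01 in the adult pairs. Of the 5853 genes, 10 genes (0.171%) were at least 1.5-fold higher in both libraries and 3 genes (0.0513%) at least 1.5-fold lower. The split turned round in other settings, with 2 higher and 6 lower over all cells without pairing, and 1 higher and 3 lower on cells thinned to 2000 UMIs. Ighd had ratios of -0.18 (-0.30 to -0.05) and 0.01 (-0.06 to 0.07), Ccr7 of -0.13 and 0.19, and H2-Aa of -0.02 and -0.08. In the neonatal library 17 of the 18 genes of the study's list were below 0 (median -0.22), and in the adult library 10 of 18 were above it (0.01). In depth-paired cells with none of the 6 genes the neonatal list median was -0.15 and the Ighd ratio -0.015. With each cell thinned to 2000 UMIs and not paired, they were 0.023 and 0.034. Pxdc1, a member of that list, had ratios of -0.76 and -0.29 and was not called. Of the 5 B1 genes compared, 1 was called higher, against 0.171% of all genes, with medians of 0.45 and 0.13. Between cells with none of the 6 genes the B1 medians were 0.10 and 0.05, and on thinned, unpaired cells 0.34 and -0.22.

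Of the called genes, 3 of the 10 higher (Ahnak, Pdlim1 and Socs3) and 1 of the 3 lower (Slc15a2) held at least 50 UMIs in every set, and the others, Sox4 of the transitional list among them, are a description. The 10 higher genes were Ahnak, Gbp7, Ifitm3, Lgals3, Lmna, Pcid2, Pdlim1, Socs3, Sox4 and Tubb2b, and the 3 lower genes Pdk1, Slc15a2 and Vps52. Ahnak, a large membrane scaffold, summed to 436 against 289 UMIs in the neonatal (log2 ratio 0.59, 0.37 to 0.81) and 389 against 236 UMIs in the adult pairs (0.68, 0.45 to 0.92), with an adult ratio of -0.069 on thinned cells. Tagln2, an actin-binding protein, was at 427 against 300.4 CPM (0.51, 0.34 to 0.68) and 165 against 91.6 CPM (0.85, 0.67 to 1.03), and Vim, the intermediate filament vimentin, had ratios of 0.45 and 0.35. Socs3, an inhibitor of cytokine signals, summed to 173 against 67 and 185 against 107 UMIs (1.36 and 0.75), but its neonatal ratio turned round to -0.14 between cells with none of the 6 genes and to -0.49 on thinned cells. Among the better-expressed genes with ratios below 0 were Samsn1, an adaptor that restrains B cells (-0.30, -0.62 to 0.01, and -0.50), and Cd180, a Toll-like receptor homologue (-0.25, -0.53 to 0.03, and -0.45). Neither was called, and both neonatal intervals included 0. Single cells carried much of some sums: 60% of the Ifitm3 UMIs of the neonatal Fcer2a+Cr2- cells came from 1 cell. With every cell thinned to 2000 UMIs and not paired, 4 genes were called, and 0 of them was among these 13.

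Between the ages, 557 adult Fcer2a+Cr2- cells were paired with 557 neonatal ones of the same depth. Of 7816 genes compared, 449 (5.74%) were at least 1.5-fold higher in the adult and 862 (11.0%) at least 1.5-fold lower. The median log2 ratio of all genes was -0.12, and under another scaling, by the median of ratios, the numbers were 644 and 520, so ratios are to be read relative to that median. Fcer2a, which the rule used, was at 2.83 and 2.82 UMIs per cell.

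Of the 10 interferon-induced genes compared, 3 held at least 50 UMIs at each age, and these 3 were called higher in the adult Fcer2a+Cr2- cells. Of all genes with that minimum at each age, 184 of 5836 were called higher, beside 5.74% of all genes compared. Among the 3 interferon genes Bst2 (tetherin) had a ratio of 0.92 and Irf7, a factor that amplifies the response, 0.87. The other 7 interferon genes met the minimum only with the adult cells, where they are high, so their values are a description. Ifit3, an antiviral effector, summed to 258 against 22 UMIs (log2 ratio 3.53, 2.90 to 4.23) and Isg15, a ubiquitin-like modifier, to 200 against 28 UMIs (2.81), with 10.5% of the adult UMIs of each in 1 cell. At least 3 interferon genes were read at 2000 UMIs in 41 of 1166 adult and 8 of 666 neonatal Fcer2a+Cr2- cells (3.52%, 2.53 to 4.74, and 1.20%, 0.520 to 2.35). The adult share was 5.02% in cells with both transcripts, 8.44% (5.23 to 12.7) in cells with Cr2 alone and 3.65% in cells with neither.

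Of the 10 MHC class II genes 3 were called higher in the adult cells, against 5.74% of all genes. All 10 ratios were above 0, with a median of 0.53. The number called depends on the scaling, since this list median passed 1.5-fold when read relative to the median of all genes. H2-Aa was at 4097 against 2833 CPM (0.53, 0.50 to 0.57), and Ciita, the activator of this gene family, at 127 against 65.3 CPM (0.96, 0.74 to 1.19). Among the genes with the largest ratios were the class I-like genes H2-Q7 (2.97) and H2-Q6 (2.12), which have near-identical copies that can share reads. Ly6a (Sca-1) was at 439 against 80.0 CPM (2.46, 2.28 to 2.64). Ighd was at 902 against 678 CPM (0.41, 0.34 to 0.49), and Ighm, in the other direction, at 2438 against 3465 CPM (-0.51, -0.55 to -0.47). Of the 8 survival genes compared, 2 were called higher (Bcl2, which protects cells from apoptosis, at 0.59, and Bcl2a1d) and 2 lower (Mcl1 and Pim1). The shares over all genes were 5.74% and 11.0%. Over all cells without pairing, Bcl2 was at 121 against 88.8 CPM, which is under 1.5-fold. Ccr6 had a ratio of 1.10.

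Of the 7 transitional genes compared, 6 held at least 50 UMIs at each age, and 3 of these 6 were called lower in the adult cells. Of all genes with that minimum at each age, 477 of 5836 were called lower, beside 11.0% of all genes compared. The median over the 7 transitional genes was -0.62, beside -0.12 for all genes. Cd93 summed to 50 against 102 UMIs (-1.05), Sox4 to 66 against 122 UMIs (-0.91) and Spib to 435 against 660 UMIs (-0.62). Read relative to the median of all genes, the Spib ratio was under 1.5-fold. Myb, a factor of precursor cells, summed to 19 against 96 UMIs (-2.36) and met the minimum only with the neonatal cells, so its value is a description. With a limit of 5% on mitochondrial UMIs, which left 15 neonatal and 45 adult cells, the list median turned round to 0.42. Of the 12 homing genes compared, 2 were called higher (Ccr6 and Klf2) and 5 lower (Ccr7, Cxcr5, S1pr1, S1pr4 and Itga4), against 5.74% and 11.0% of all genes. Ccr7 was at 594 against 1279 CPM (-1.11, -1.18 to -1.04), S1pr1, the receptor for egress into blood, at 191 against 359 CPM (-0.91) and Cxcr5, the receptor for follicles, at 129 against 204 CPM (-0.66), while Klf2 was at 1853 against 1215 CPM (0.61). The Cxcr5 ratio, too, was under 1.5-fold when read relative to the median of all genes. Irf4, a factor raised by B cell receptor signals, was at 64.8 against 190 CPM (-1.56), and the immediate early genes Egr1 and Egr3 at 45.7 against 105 CPM (-1.20) and 57.5 against 131 CPM (-1.19). For Egr1, 19.8% of the adult and 13.5% of the neonatal UMIs came from 1 cell. Of the 16 activation genes compared, 4 were called lower and 1, Traf1 (2.24), higher, against 11.0% and 5.74% of all genes. The lowest ratios among well-expressed genes were those of Rilpl2 (-2.07) and Myadm (-1.94), a membrane protein of the myelin and lymphocyte family.

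**Figure D4:**
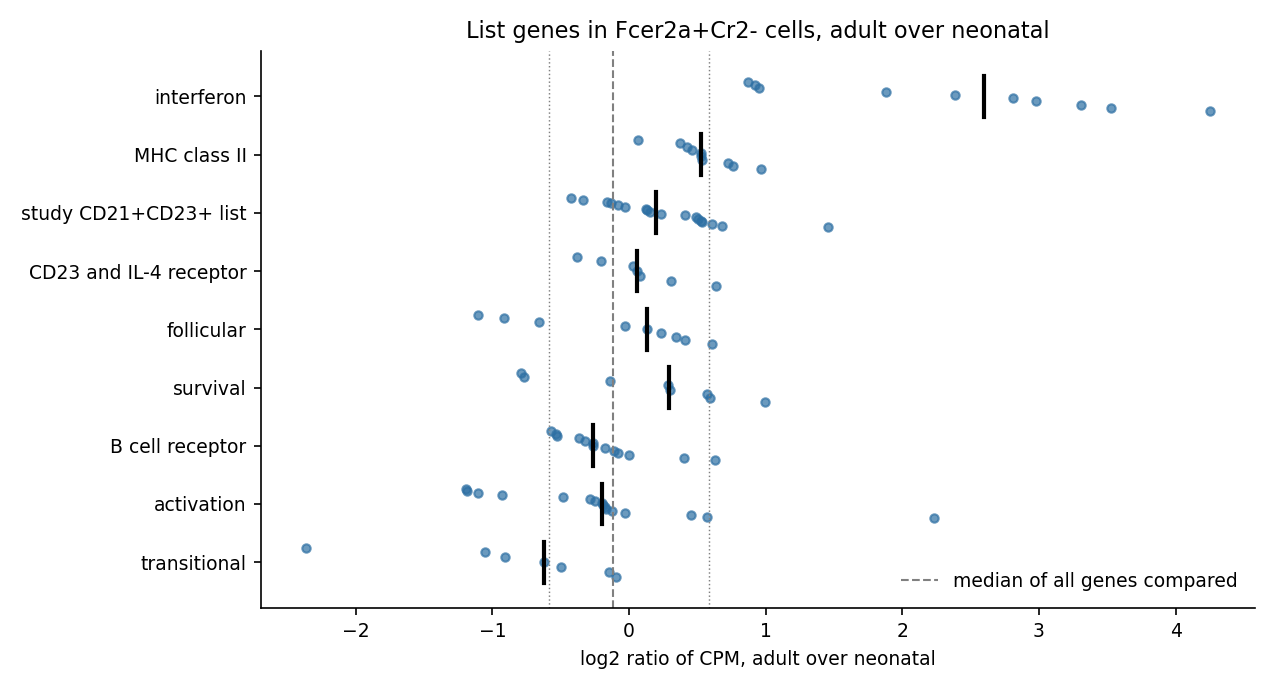
Log2 ratio of CPM, adult over neonatal Fcer2a+Cr2- cells (x axis), of the genes compared in 9 lists (rows). Points are genes, black bars list medians, the dashed line the median of all genes (-0.12) and dotted lines 1.5-fold. The 10 interferon genes, 7 of which met the minimum of UMIs only with the adult cells, lie to the right of the upper dotted line, the MHC class II genes above 0 and the 7 transitional genes below 0.

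Markers of other cell types were low in Fcer2a+Cr2- cells. Of the macrophage markers 4 of 7 had a UMI in the neonatal cells (161 UMIs, 34.3 CPM) and 6 of 7 in the adult cells (192 UMIs, 30.2 CPM). Lyz2 was the most abundant, with 115 and 154 UMIs, and the complement gene C1qa was at 0 in both. The T cell markers summed to 16 UMIs (4 of 5 genes) and 44 UMIs (5 of 5), with Trac the most abundant at 10 and 14 UMIs, and the erythroid markers to 35 and 34 UMIs (3 of 4 genes each, Hbb-bt with 17 and 32). The neutrophil markers summed to 4 and 0 UMIs and the platelet markers to 0 in both. The cardiomyocyte markers summed to 1 and 9 UMIs, with Myh6 at 0, and the fibroblast markers to 2 and 1 UMIs, with Col1a1 at 0. Of the endothelial markers, Pecam1, which B cells also express, gave 704 of 717 and 747 of 757 UMIs, and Kdr was at 0. At least 2 markers of a macrophage, T cell, erythroid, neutrophil or platelet kind were held by 6 of the 666 and 3 of the 1166 cells. With these cells left out, 8 genes were then called higher and 3 lower against cells with both transcripts, and 10 and 35 against cells with neither.

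The barcodes of 7 neonatal and 0 adult Fcer2a+Cr2- cells held at least 500 UMIs in the other library, and 0 of them met the limits for a B cell there. A UMI of Xist, transcribed from the inactive X chromosome of females, was found in 123 of the 666 neonatal (18.5%) and 0 of the 1166 adult cells; the labels give mice of both sexes for the neonatal and males for the adult library. A Y-linked UMI was found in 429 and 818 cells, and both Xist and a Y-linked UMI in 26 neonatal and 0 adult cells. Whether these 26 are doublets or hold free RNA was not tested. With the Xist-positive neonatal cells left out, 417 genes were called higher and 854 lower in the adult cells.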

How the data were processed

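The authors aligned the reads to mm10 and counted UMIs with Cell Ranger (3.0.2 in the file headers, another version in the Methods) from a 10x Chromium 3′ v3 run; the deposited values are raw counts, with no normalization and with all droplets kept. Doublets were gated out in the sort, and no doublet caller was run here, so doublets can remain. The counts were read with Python 3.11.15, numpy 2.4.6, scipy 1.17.1 and pandas 2.3.3. The cells and gene lists were chosen with earlier results of these data known. Cells of 2 classes were paired 1 to 1 by UMI total (at most 5% apart), and genes needed at least 50 UMIs over the sets of each library. Immunoglobulin variable genes, mitochondrial genes and the genes of the rule were left out, and for ages 6 sex-linked genes. A count of 0 was set to 3 UMIs per set for ratios. Genes were named from the lists and, with at least 100 CPM in a matched set, as the 8 (classes) or 12 (ages) with the largest ratios in each direction; the genes called against cells with both transcripts, those called higher against cells with neither, and Sox5 and Ahr were named after their values were seen where they lie outside that rule. Ratios carry exact conditional binomial intervals and shares Clopper-Pearson intervals, at 95%. The ratios and intervals were run on simulated data, drawn as independent counts per gene. Such counts follow the model of the intervals and hold no clustering of UMIs in single cells. The simulation therefore checks the calculation and cannot show that the intervals suit the real counts. Of 31053 genes, 99.6% of the identifiers were in GENCODE M21. Cells with at least 10 Jchain UMIs were left out as an alternative chosen after seeing the data. The other alternatives changed the limits on cells, the pairing, the scaling and the filter. Some genes are not reported here.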

Additional observations from a re-analysis of the deposited data

Results flagged for a closer look

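The following list genes were at least 1.5-fold apart in opposite directions in the neonatal and adult library, and the difference between the libraries was not tested. Lyz2, which encodes lysozyme of myeloid cells, had a log2 ratio of Fcer2a+Cr2- cells over cells with both transcripts of -1.28 among neonatal and 6.22 among adult cells. It summed to 112 against 272 and to 153 against 2 UMIs, and 50% and 98.7% of the UMIs of the Fcer2a+Cr2- cells came from 1 cell. Sdc1 (CD138), a marker of plasma cells, had a ratio of Fcer2a+Cr2- cells over cells with neither transcript of 0.65 (-0.17 to 1.49) among neonatal and -0.67 (-1.51 to 0.14) among adult cells, on 34 against 22 and 22 against 35 UMIs.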

How the results depend on the processing

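With 1 library per age and 0 replicates, no replicate could be left out. No paired analysis was possible because each age has 1 library and no test was run. A limit of 5% on mitochondrial UMIs left 15 neonatal and 45 adult Fcer2a+Cr2- cells, at Cr2-negative shares of 100% and 74.2% at 2000 UMIs, and called 0 genes against cells with both transcripts, 1 against cells with neither and 81 between ages. The transitional list median between ages was then 0.42. At least 2 Fcer2a UMIs left 443 and 733 cells, with an adult share of 76.6%. Cells with none of the 6 genes gave an adult share of 82.0%, and 3 and 31 called genes against both and neither. Thinning to 1000 UMIs gave an adult share of 89.3%. Against both, all cells unpaired gave 8 calls and thinned cells 4. A minimum of 200 UMIs gave 2, 7 and 480 calls for both, neither and ages, and of 1 UMI 705, 935 and 4960, where 13, 47 and 1311 were called. Against both, a ratio called higher or lower turned round for Socs3 (neonatal) without the 6 genes (-0.14) and thinned (-0.49), for Ifitm3 (neonatal) without shared barcodes (-0.62) and unpaired (-0.56), for Gbp7 (-0.25) and Lmna (-0.22) unpaired (adult), and thinned for Pdk1 (neonatal, 0.56), Ahnak (-0.069) and Pdlim1 (adult, -0.039). Against neither, unpaired neonatal ratios of Anxa2 (0.075) and S100a4 (0.31) turned round. A minimum of 4000 UMIs gave 18 higher and 24 lower genes against neither. The adult Ighd ratio against neither was 0.26 on thinned cells. The causes were not tested.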
